A study of Arabidopsis thaliana with 12 samples.

Results

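The mitochondrial genome of Arabidopsis thaliana was followed through 152 rows of a gene count table, which are all the rows whose identifier starts with ATMG, out of 32833 rows in all. RNA came from whole soil-grown seedlings at 12 days after germination, kept at about 21 °C in long days once their seeds had been stratified for 4 days. Experiment 1 (group 1 of the labels) compared 3 libraries labelled hira-1 with 3 libraries of wild-type Columbia-0 (Col-0), and experiment 2 (group 2) compared 3 fas2-4 libraries with 3 Col-0 libraries of its own. The labels give no allele other than hira-1 or fas2-4, and no treatment, for any group. HIRA is a histone chaperone for the H3.3 variant, and FAS2 belongs to CAF-1, a chaperone that places H3 on newly made DNA.

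Plant mitochondria keep a small genome that encodes part of the respiratory chain and ATP synthase, proteins for cytochrome c maturation, and the ribosomal RNAs and some proteins of the mitochondrial ribosome. It is transcribed by nuclear-encoded polymerases, and nuclear-encoded helicases and splicing factors mature its transcripts. Most other mitochondrial proteins come from the nucleus, which also raises alternative oxidases and related proteins when mitochondrial function is disturbed. In Arabidopsis, a large stretch of the mitochondrial genome has also been copied into chromosome 2.

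The targeted genes were read as a check of the labels. HIRA (AT3G44530) had 235, 286 and 454 counts in libraries labelled hira-1 and 223, 300 and 203 in Col-0. Its counts were therefore not lower in hira-1 (log2 fold change 0.56, edgeR adjusted p = 0.198), and hira-1 below stands for the libraries so labelled. FAS2 (AT5G64630) had 197, 207 and 281 counts in fas2-4 and 273, 286 and 253 in Col-0 (-0.40, edgeR adjusted p = 0.156). A count over a whole gene does not show whether its transcript is interrupted.

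The deposited tables give identifiers without names. Row lengths were recovered from the ratio of the deposited counts to the deposited TMM-scaled TPM values (a level corrected for gene length and depth, rescaled per library by the authors). Names were then given to 26 rows, 16 by a unique match of length to a named mitochondrial gene of the TAIR10.1 reference and 10 by that reference's notes on chromosome 2 genes. The other 126 rows are given by identifier, with no role; for some, the notes give a domain or likeness only. Among them is ATMG00020, a row of 2568 bases with the most counts of all, whose length matches no named mitochondrial gene of that reference. The gene lists drawn up for these rows place it with ATMG01380 and ATMG01390 as ribosomal RNA. The rrn26 gene of the reference is 3169 bases long, so length could not check that placing and the row is left unnamed.

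The nuclear copy bears on the values of the genes it holds, because a read from a sequence present in both genomes can be counted in either. Of 36 mitochondrial genes in the TAIR10.1 reference (RefSeq, the source of the sequences below), 23 were matched over at least 99% of their length by chromosome 2, at 99.75% to 100% identity, all within chr2:3239038-3509765. The gene of atp9 (row ATMG01080), a ring subunit of the ATP synthase, lies on the reverse strand of the mitochondrial genome at 270961 to 271185 and is matched at chr2:3251856-3252080, also on the reverse strand. It is shown because its 225 bases are the same in both places. Capitals mark the first codon.
atp9, mitochondrial genome and chromosome 2: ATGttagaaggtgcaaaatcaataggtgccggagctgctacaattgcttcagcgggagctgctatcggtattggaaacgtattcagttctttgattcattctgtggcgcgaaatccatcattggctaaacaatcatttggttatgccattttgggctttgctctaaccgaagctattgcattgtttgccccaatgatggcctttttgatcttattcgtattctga

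The rrn18 gene (row ATMG01390), which encodes the RNA of the small ribosomal subunit and is 1935 bases long, was hardly covered in the TAIR10.1 reference. Its best nuclear match covered 79 bases (4.08% of the gene) at chr2:3250677-3250755, with 5 mismatches. Both stretches of that best match are shown for contrast with atp9, with capitals at the mismatched bases. The mitochondrial stretch lies at 126289 to 126367, and both are read from the reverse strand.
rrn18, mitochondrial genome: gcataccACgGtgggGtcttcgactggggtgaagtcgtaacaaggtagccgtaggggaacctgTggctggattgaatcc
rrn18 match, chromosome 2: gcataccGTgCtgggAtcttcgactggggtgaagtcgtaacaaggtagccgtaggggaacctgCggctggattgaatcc

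The genes of cox1, cox2, nad9, rpl16, rrn5, ccmB and atp4 likewise had no nuclear match over their full length. A nuclear copy missing from the TAIR10.1 reference would not be seen by this search. Among the rows, 45 have a chromosome 2 counterpart named in the reference's notes, in 46 pairs. The 45 rows held 3459 counts over the 12 libraries and the chromosome 2 genes held 6867. In 17 of the 25 pairs with at least 20 counts on the mitochondria-encoded row, the chromosome 2 gene had between 0.5 and 2 times as many counts, with a median ratio of 1.51 over the 25 pairs. The row of rps4 (ATMG00290), a ribosomal protein gene, had 5, 3 and 10 counts in libraries labelled hira-1, 6, 6 and 0 in their Col-0 libraries, 9, 8 and 8 in fas2-4 and 12, 11 and 6 in the Col-0 libraries of experiment 2. Its counterpart AT2G07734 was within 2 counts of these values in 12 of 12 libraries and equal in 9. Reads of such copies cannot be told apart in these tables. Equal counts in all 12 libraries were also found for 7 pairs of mitochondria-encoded rows, with no minimum count set. Some of these rows were nearly empty: ATMG00850 and ATMG00950 held 1 count each, as did ATMG00870 and ATMG00930. Ties at such counts say little about shared sequence.

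**Figure D1:**
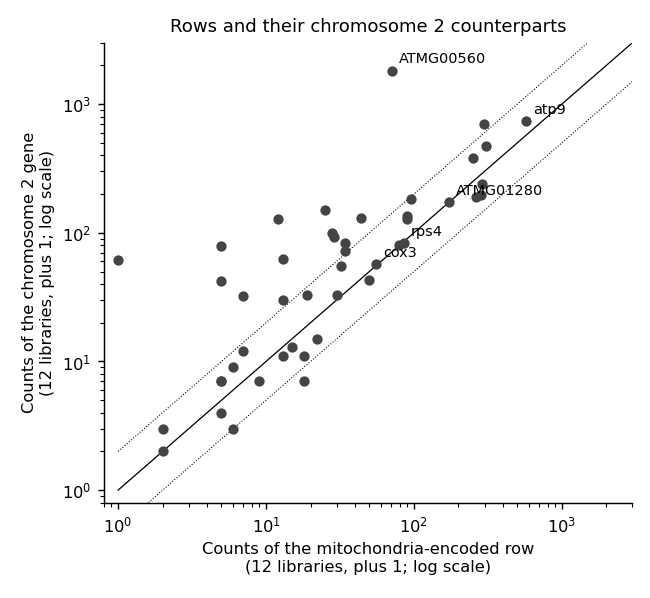
Counts summed over 12 libraries for 46 pairs of a mitochondria-encoded row (horizontal axis) and its chromosome 2 counterpart (vertical axis), each plus 1 and on log scales; the solid line marks equal counts and the dotted lines a ratio of 0.5 and 2. Points for rps4, cox3 and ATMG01280 lie on or near the line of equal counts, and ATMG00560 lies well above it, with 70 counts against 1819 on AT2G07715.

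Mitochondria-encoded rows took a small share of every library. The 12 libraries held 20700171 to 21902258 counts in experiment 1 and 39258873 to 39510509 in experiment 2, of which 22523 counts in all fell on the 152 rows. In all, 10 rows were at 0 throughout; 142 had at least 1 count and 35 had at least 1 in every library. A total of 10 counts or fewer was found for 74 rows, and 25 rows reached 100. A count of 0 allows up to 0.145 CPM (counts scaled to library size) in the shallowest library and 0.0759 in the deepest (3 counts of the total, counting error only). The labels say neither whether poly(A) RNA was selected nor whether counting used strand.

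The 4 leading rows carried 63.1% of the counts. Pooled over the 12 libraries, ATMG00020 and rrn18 together held 35.6%, and the pair of 80-base rows ATMG09450 and ATMG09730 held 27.5%. That order was the other way round in hira-1, where the first pair held 13.9% to 26.8% and the 80-base rows 40.6% to 44.2%. In their Col-0 libraries the shares were 40.3% to 62.8% and 11.3% to 22.5%. The order was also reversed in replicate 1 of fas2-4 (28.0% and 35.3%) and in replicate 1 of its Col-0 (29.1% and 30.6%). In the other libraries of experiment 2 the first pair held more. Per length, the levels ran in another order. ATMG09450 averaged 184 TMM-scaled TPM over the 12 libraries (90.8 to 322) and ATMG09730 averaged 135 (62.5 to 234). Far below came rrn18 at 7.83 (3.23 to 17.3), ATMG00020 at 7.06 (1.55 to 18.5), ATMG00030 at 6.20 (0.196 to 12.6) and ATMG01370 at 5.60 (2.44 to 12.9). The ranges of the last 4 overlap, so their order is within the spread of the libraries.

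The summed share of the rows was lower in libraries labelled hira-1 than in their Col-0 libraries, and overlapped between fas2-4 and Col-0. The summed share was 45.8 CPM (95% Wilson interval 43.0 to 48.8), 70.4 (67.0 to 74.1) and 70.8 (67.3 to 74.5) in the 3 libraries labelled hira-1. Their Col-0 libraries gave 83.5 (79.7 to 87.4), 119 (115 to 124) and 75.8 (72.3 to 79.6). The group means were 62.3 ± 14.3 in hira-1 and 92.9 ± 23.3 in Col-0 (SD, n = 3 each), and the 2 sets of libraries did not overlap. The fas2-4 libraries gave 83.1 (80.3 to 86.0), 44.6 (42.6 to 46.8) and 43.2 (41.2 to 45.3), against 63.3 (60.9 to 65.9), 44.2 (42.1 to 46.3) and 39.5 (37.6 to 41.5) in Col-0. Their means were 57.0 ± 22.6 in fas2-4 and 49.0 ± 12.6 in Col-0 (SD, n = 3 each), a difference smaller than either SD. Such intervals cover counting error only, and no test is given for a sum over the rows. In whole seedlings, fewer mitochondria or cells and less RNA in each cannot be told apart.

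The lower share in libraries labelled hira-1 lay in ATMG00020 and rrn18. These averaged 12.0 ± 6.2 CPM in hira-1 and 48.2 ± 15.9 in Col-0 (SD, n = 3 each), while the 80-base rows averaged 25.9 ± 4.93 in hira-1 and 15.8 ± 5.84 in Col-0. The remaining rows averaged 24.4 ± 6.83 in hira-1 and 28.9 ± 7.67 in Col-0, a difference within the SD. The ratio of the mean share in hira-1 to that in Col-0 was 0.671 with all rows and 0.782 with rrn18 and rrn5 left out. It was 1.13 with ATMG00020, also on the list of ribosomal RNA rows, left out as well.

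**Figure D2:**
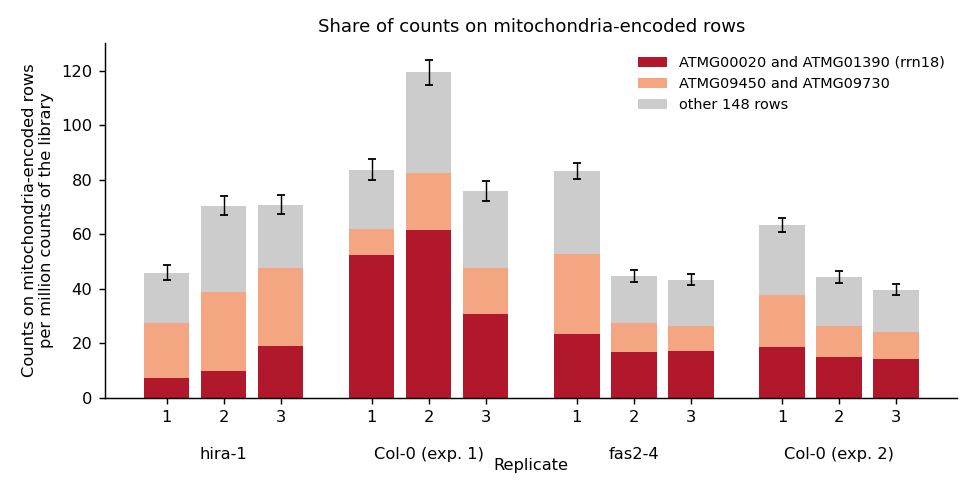
Counts on mitochondria-encoded rows as CPM of each library (vertical axis), for the 3 replicates of each group (horizontal axis), stacked into 3 sets of rows; error bars are 95% Wilson intervals of the whole share. The segments of ATMG00020 and rrn18 reach 7.20 to 19.0 in hira-1 and 30.6 to 61.6 in the Col-0 libraries of the same experiment.

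For ATMG00020, the counts were 58, 104 and 241 in libraries labelled hira-1, against 669, 791 and 356 in Col-0. All 3 hira-1 libraries lay below all 3 Col-0 libraries. After TMM scaling of the libraries, the row averaged 6.70 ± 5.16 CPM in hira-1 and 27.1 ± 9.88 in Col-0 (SD, n = 3 each). It was 4.06-fold lower in hira-1 (log2 -2.02, SE 0.504, edgeR quasi-likelihood test, Benjamini-Hochberg adjusted p = 0.0371). For rrn18, the counts were 91, 104 and 159 in hira-1, against 464, 559 and 312 in Col-0, again without overlap. It averaged 5.82 ± 2.14 CPM in hira-1 and 19.96 ± 5.43 in Col-0, and was 3.43-fold lower in hira-1 (log2 -1.78, SE 0.309, edgeR adjusted p = 0.0218).

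These were the only 2 of the 20 rows tested in experiment 1 that edgeR called at an adjusted p under 0.05, both lower; of all 18739 genes tested, 6.8% were called lower and 6.94% higher. Same-numbered libraries of experiment 1 deviated together across genes, which is the only sign that they are pairs. With the replicate number as a block, rrn18 was called at -1.79 (edgeR adjusted p = 0.0227) and ATMG00020 was not (-2.15, edgeR adjusted p = 0.198). Leaving out replicate 1 of hira-1, or replicate 1 or 2 of Col-0, ended both calls, with adjusted p of 0.0789 to 0.139 and log2 fold changes of -1.60 to -1.94. In those same fits edgeR called 19 to 50 genes of the whole table, against 2575 with all libraries. The smallest drop for ATMG00020 without any 1 library was -1.66 and for rrn18 -1.60, so both kept their direction. With offsets for gene length, rrn18 was called and ATMG00020 was not (-1.57, edgeR adjusted p = 0.0808); that fit called 5.1% of all genes lower and 5.03% higher.

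In experiment 1, counts on plastid-encoded rows (identifiers starting with ATCG) were lower in libraries labelled hira-1, as were ATMG00020 and rrn18. They took 0.0750%, 0.104% and 0.245% of the counts in libraries labelled hira-1, against 0.437%, 0.446% and 0.289% in their Col-0 libraries. In fas2-4 they took 0.108%, 0.0752% and 0.102%, against 0.128%, 0.112% and 0.0831% in Col-0. The plastid share and the 2 leading rows were highest in the same libraries, those of Col-0 in experiment 1, and within hira-1 both were highest in replicate 3. The part of the plastid share in the result was not tested. In experiment 2, rrn18 averaged 8.99 ± 2.72 CPM in fas2-4 and 8.13 ± 1.04 in Col-0, so the Col-0 libraries of experiment 1, at 19.96 ± 5.43, stood above the other 3 groups. The experiments were scaled separately.

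**Figure D3:**
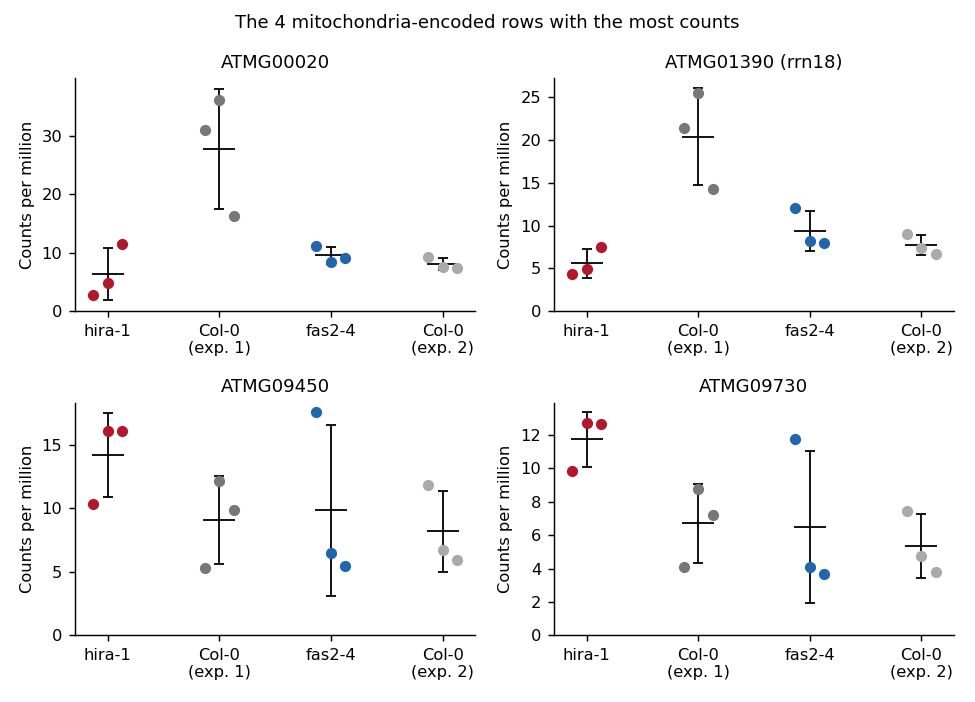
Levels as CPM of each library, without TMM scaling (vertical axes) for the 4 mitochondria-encoded rows with the most counts, with 1 point per library and the mean ± SD of 3 libraries in each group (horizontal axes). For ATMG00020 and rrn18 the Col-0 libraries of experiment 1 lie above the other 9, and for ATMG09730 all 3 hira-1 libraries lie above their Col-0 libraries.

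The 80-base rows went the other way in libraries labelled hira-1, without passing the edgeR test. ATMG09730 had 204, 270 and 266 counts in hira-1 and 89, 192 and 158 in Col-0, with all 3 hira-1 libraries higher after scaling. Its log2 fold change was 0.87 (SE 0.293, edgeR adjusted p = 0.0708). DESeq2 called it higher (0.89, adjusted p = 0.0274), as did limma with a pseudocount of 1 or 0.1 (0.93 and 0.94, adjusted p = 0.0449 and 0.0459). Those fits called 24.0%, 15.4% and 14.7% of all genes, in either direction. ATMG09450 had 215, 342 and 339 counts in hira-1 and 115, 266 and 215 in Col-0, with overlapping groups, at 0.71 on the log2 scale (SE 0.318, edgeR adjusted p = 0.141). With the replicate block, both were called higher (0.91 and 0.74, edgeR adjusted p = 0.00015 and 0.00044), in a fit that called 23.9% of all genes higher and 27.3% lower. With offsets for gene length they were at 0.06 and -0.12. ATMG09730 had 0.628 to 0.949 times the counts of ATMG09450 across the 12 libraries. How reads longer than these rows were counted is not known here.

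No tested row named for a respiratory chain subunit passed the edgeR test in either mutant. In complex I, NADH dehydrogenase, nad4 (ATMG00580) was the highest of 6 named rows per length, at 0.694 TMM-scaled TPM, followed by nad9 (ATMG00070) at 0.473. The nad4 row had 20, 21 and 23 counts in libraries labelled hira-1 and 16, 32 and 12 in Col-0 (log2 fold change 0.22, SE 0.437, edgeR adjusted p = 0.739). It had 19, 16 and 23 in fas2-4 and 19, 21 and 19 in Col-0 (-0.17, SE 0.272, edgeR adjusted p = 0.762). The nad9 row was too low to test, with 1, 0 and 0 counts in hira-1 and 6, 14 and 2 in Col-0. In fas2-4 it had 10, 9 and 5 counts, against 11, 7 and 7 in Col-0. The single row of cytochrome b in complex III, cob (ATMG00220), was not tested either, with 0 to 9 counts per library.

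In cytochrome c oxidase, the complex that passes electrons to oxygen, cox2 (ATMG00160) was the highest of 3 named rows at 1.49 TMM-scaled TPM and cox1 (ATMG01360) came next at 0.331. The cox2 row had 22, 34 and 25 counts in libraries labelled hira-1 and 13, 19 and 22 in Col-0. After scaling, all 3 hira-1 libraries were above the Col-0 libraries, and the row missed the threshold at 0.69 on the log2 scale (SE 0.369, edgeR adjusted p = 0.202). In experiment 2 it had 32, 19 and 24 counts in fas2-4 and 23, 29 and 14 in Col-0 (0.04, SE 0.352, edgeR adjusted p = 0.960). The cox1 row, tested in experiment 2 only, had 14, 12 and 9 counts in fas2-4 and 14, 9 and 11 in Col-0 (-0.10, SE 0.351, edgeR adjusted p = 0.904).

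The ATP synthase rows were the best covered of the protein classes: 4 of 5 were tested in experiment 1 and 5 of 5 in experiment 2, and 0 were called. The row of atp9, 504 bases long and so longer than the coding sequence shown above, averaged 4.43 TMM-scaled TPM. It had 14, 32 and 25 counts in libraries labelled hira-1 and 23, 56 and 55 in Col-0, overlapping groups at -0.81 on the log2 scale (SE 0.442, edgeR adjusted p = 0.213). With the replicate block and length offsets together it was called lower (-1.36, edgeR adjusted p = 0.0035). Its chromosome 2 counterpart AT2G07671 had 30, 39 and 33 counts in hira-1 and 43, 73 and 77 in Col-0 (-0.80, SE 0.321, edgeR adjusted p = 0.107). In experiment 2, atp9 had 91, 38 and 48 counts in fas2-4 and 94, 53 and 43 in Col-0 (-0.22, SE 0.406, edgeR adjusted p = 0.797). The atp8 row (ATMG00480), another membrane subunit, averaged 2.61 TMM-scaled TPM, with log2 fold changes of 0.52 in hira-1 (SE 0.456, edgeR adjusted p = 0.419) and -0.37 in fas2-4 (SE 0.589, edgeR adjusted p = 0.766).

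Of 4 named rows for cytochrome c maturation, which attaches haem to cytochromes c, 2 were tested in experiment 1 and 1 in experiment 2, with 0 called. The ccmFC row (ATMG00180) averaged 0.867 TMM-scaled TPM and the ccmB row (ATMG00110) averaged 0.810. The ccmFC row had 14, 35 and 7 counts in libraries labelled hira-1 and 13, 35 and 26 in Col-0, and 49, 14 and 20 in fas2-4 against 27, 24 and 23 in Col-0. Its log2 fold changes were -0.32 in hira-1 (SE 0.565, edgeR adjusted p = 0.700) and 0.04 in fas2-4 (SE 0.465, edgeR adjusted p = 0.976). The 5 rows for ribosomal proteins held 18 to 84 counts each and none was tested. The highest per length were rps12 (ATMG00980) at 0.506 TMM-scaled TPM and rps4 at 0.306. The other row named for a ribosomal RNA, rrn5 (ATMG01380) of the large ribosomal subunit, averaged 1.73 TMM-scaled TPM. It had 1 to 9 counts per library and was not tested.

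Among the rows left unnamed, ATMG01280, whose chromosome 2 counterpart carries the note of a domain like that of cytochrome c oxidase subunit II, had 12, 33 and 27 counts in libraries labelled hira-1 and 3, 13 and 12 in Col-0 (log2 fold change 1.46, SE 0.572, edgeR adjusted p = 0.102). With the replicate block it was called higher (1.5, edgeR adjusted p = 0.0094). Its chromosome 2 counterpart AT2G07695 had 9, 22 and 19 counts in hira-1 and 3, 12 and 16 in Col-0. ATMG00030 had 9, 1 and 32 counts in hira-1 and 37, 68 and 27 in Col-0, with hira-1 libraries on both sides of the lowest Col-0 library (-1.47, SE 0.802, edgeR adjusted p = 0.210). ATMG01370 had 33, 68 and 25 counts in hira-1 and 13, 49 and 27 in Col-0 (0.59, SE 0.507, edgeR adjusted p = 0.416).

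Over the 20 rows tested in experiment 1, the median log2 fold change was 0.18, against -0.02 over all 18739 genes, with 11 rows above 0 and 9 below. That median was -0.23 with length offsets and -0.43 with no filter on low counts, so its sign is not settled. Groups of libraries did not overlap for 4 rows that were lower in hira-1 and 3 that were higher; of all genes tested, 19.2% were lower and 19.4% higher without overlap. The 132 rows too low to test summed to 486 counts in hira-1 and 764 in Col-0.

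**Figure D4:**
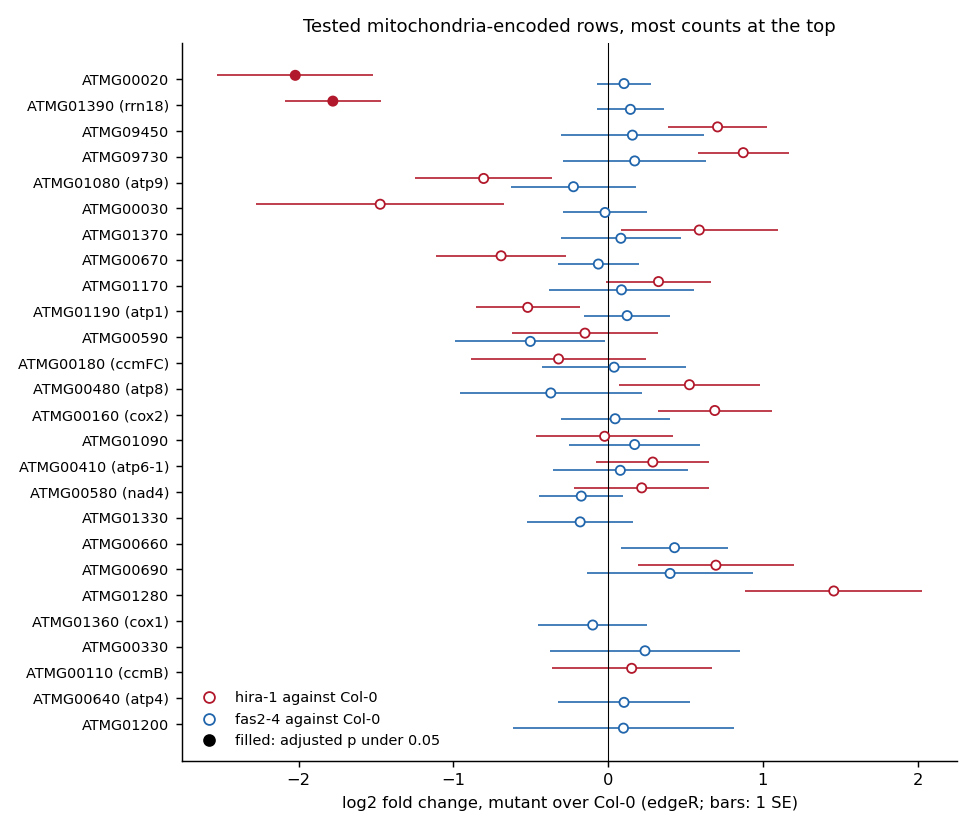
Log2 fold changes (horizontal axis, mutant over Col-0, bars of 1 SE) of the mitochondria-encoded rows tested in either experiment, ordered by total counts from top to bottom; filled points passed an edgeR adjusted p of 0.05. Filled points are ATMG00020 at -2.02 and rrn18 at -1.78 in hira-1, and the fas2-4 points lie between -0.50 and 0.43.

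In fas2-4, no mitochondria-encoded row was separable from Col-0 by these tests. The edgeR test called 0 of 24 rows, and 0 had an unadjusted p under 0.05, against 9.74% and 25.4% of the 20004 genes tested. DESeq2 also called 0, against 14.9% of all genes. The groups overlapped for 24 of 24 rows. Of all genes tested, 17.5% were higher and 14.2% lower without overlap. The log2 fold changes ran from -0.50 (ATMG00590) to 0.43 (ATMG00660), with a median of 0.08 against 0.03 over all genes. ATMG00020 had 441, 333 and 358 counts in fas2-4 and 368, 298 and 292 in Col-0 (log2 fold change 0.10, SE 0.175, edgeR adjusted p = 0.785). The rrn18 row had 473, 322 and 312 counts in fas2-4 and 357, 292 and 265 in Col-0 (0.14, SE 0.217, edgeR adjusted p = 0.755).

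Both 80-base rows were highest in replicate 1 of fas2-4. ATMG09450 had 691, 255 and 216 counts in fas2-4 and 468, 265 and 235 in Col-0 (log2 fold change 0.16, SE 0.461, edgeR adjusted p = 0.885). ATMG09730 had 461, 161 and 145 in fas2-4 and 294, 189 and 149 in Col-0 (0.17, SE 0.464, edgeR adjusted p = 0.874). Without replicate 1 of fas2-4 they stood at -0.66 and -0.67, the mean share of all rows was 0.896 times that in Col-0 (1.16 times with all libraries), and ATMG00590 was called lower (-1.39, edgeR adjusted p = 0.0108). That single call stood beside 28% of all genes called in the same fit.

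The effects of the mutants were compared by the contrast of the fas2-4 effect minus the hira-1 effect over all 12 libraries, with each mutant set against its own Col-0 libraries. The test called 4 of 33 rows, all positive: rrn18, ATMG00020, ATMG00660 and ATMG00330. Of all 20152 genes, 5.84% were called positive and 5.73% negative. ATMG00660 and ATMG00330, with 6 and 1 counts in hira-1, were too low to test in experiment 1 alone. They entered this test only through groups where their counts were higher. For rrn18 the difference was 1.92 on the log2 scale (SE 0.397, edgeR adjusted p = 0.0136), and it passed in every fit that left out 1 library, with 1.63 to 2.24. For ATMG00020 it was 2.13 (SE 0.579, edgeR adjusted p = 0.0353). Since the Col-0 libraries of experiment 1 stand above those of experiment 2 for both rows, the difference carries that gap between Col-0 sets as well as any difference between mutants, and these cannot be told apart.

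Nuclear genes that serve mitochondria were read from 4 lists beside the mitochondrial rows. Of 14 tested genes for mitochondrial transcription and RNA maturation, 0 were called higher and 1 lower in libraries labelled hira-1, with a median log2 fold change of -0.44 against -0.02 over all genes. Of all genes, 6.94% were called higher and 6.8% lower. The called gene was PMH2 (AT3G22330), a mitochondrial RNA helicase, with 387, 392 and 414 counts in hira-1 and 733, 714 and 815 in Col-0. The groups did not overlap (-0.80, SE 0.169, edgeR adjusted p = 0.0274). With the replicate block, 5 were called lower and 1 higher, beside 27.3% and 23.9% of all genes in that fit. In fas2-4, 0 of the 14 were called by edgeR or DESeq2, with 1 at an unadjusted p under 0.05. Of all genes there, edgeR called 9.74% and DESeq2 14.9%, and 25.4% had such an unadjusted p. The difference between the effects of the mutants was called for PMH2 alone (0.99, edgeR adjusted p = 0.0141).

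Of 10 tested genes for mitochondrial DNA maintenance, the 1 that edgeR called in libraries labelled hira-1 was POLGAMMA2 (AT1G50840), an organellar DNA polymerase. It had 491, 745 and 361 counts in hira-1 and 950, 1219 and 900 in Col-0 (log2 fold change -0.85, SE 0.232, edgeR adjusted p = 0.0445). With length offsets it stood at -0.18 and was not called. Under the block, 3 were called higher and 3 lower, near the shares of all genes in that fit (23.9% and 27.3%). In fas2-4, 0 of 10 were called, with 1 at an unadjusted p under 0.05, and DESeq2 also called 0. The shares of all genes there were 9.74%, 25.4% and 14.9%.

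Of 30 nuclear-encoded respiratory chain subunits, edgeR called 4 higher and 3 lower in libraries labelled hira-1, with a median of 0.25 on the log2 scale, and 0 in fas2-4. Of all genes, 6.94% were called higher and 6.8% lower in hira-1. AT1G51650, an ATP synthase subunit, had 5888, 5380 and 6749 counts in hira-1 and 3164, 3216 and 3769 in Col-0 (log2 fold change 0.96, SE 0.189, edgeR adjusted p = 0.0248). FRO1 (AT5G67590), a complex I subunit, was higher at 0.82 (SE 0.196, edgeR adjusted p = 0.0342). AT1G79010 and CI51 (AT5G08530), also of complex I, were lower at -0.62 and -0.58 (edgeR adjusted p = 0.0362 and 0.0405). With the replicate block, 14 were called higher and 5 lower, in the fit that called 23.9% of all genes higher and 27.3% lower. The higher count is above that background and the lower count is below it. Leaving out replicate 1 of hira-1, or replicate 1 or 2 of Col-0, left 0 calls in hira-1 in any of the 4 lists, and leaving out replicate 3 of hira-1 left 1 respiratory subunit. In fas2-4, 1 of the 30 had an unadjusted p under 0.05; DESeq2 called 0 there too. The difference between the effects was called for 3 subunits, all more positive in fas2-4, beside 5.84% of all genes called positive. Over the 30 subunits the median difference was -0.21 on the log2 scale, with 9 above 0 and 21 below.

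In fas2-4, where no mitochondria-encoded row was called, 9 of 13 tested genes of the mitochondrial stress response list were higher and 1 was lower. Over all genes, 6.78% were called higher and 2.96% lower. The median of the 13 was 1.11 on the log2 scale, against 0.03 over all genes. AOX1C (AT3G27620), an alternative oxidase that bypasses part of the respiratory chain, had 267, 287 and 287 counts in fas2-4 and 37, 33 and 25 in Col-0. The groups were far apart (2.99, SE 0.187, edgeR adjusted p = 0.000105). BCS1 (AT3G50930), an AAA ATPase of the outer mitochondrial membrane, had 1068, 938 and 1150 counts in fas2-4 and 467, 407 and 431 in Col-0 (1.13, SE 0.130, edgeR adjusted p = 0.00205). AT2G21640 had 874, 653 and 624 counts in fas2-4 and 226, 258 and 209 in Col-0 (1.5, SE 0.193, edgeR adjusted p = 0.00308). NDA2 (AT2G29990), an alternative NAD(P)H dehydrogenase, had 550, 502 and 656 counts in fas2-4 and 244, 269 and 202 in Col-0 (1.11, SE 0.158, edgeR adjusted p = 0.00467).

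The 1 lower gene, NDA1 (AT1G07180), a related dehydrogenase, was also the 1 of the 13 called in libraries labelled hira-1. It stood at -0.73 in fas2-4 (SE 0.140, edgeR adjusted p = 0.0148) and at -0.72 in hira-1 (SE 0.152, edgeR adjusted p = 0.0274). In hira-1, 0 were called higher and the median was 0.24. Under the block 2 of the 13 were called higher and 3 lower there, beside 23.9% and 27.3% of all genes in that fit, and DESeq2 called 1 higher. AOX1C had 8, 13 and 15 counts in hira-1 and 16, 8 and 18 in Col-0. The difference between the effects of the mutants was called for 3 of the 13, all more positive in fas2-4: AOX1C (3.09, edgeR adjusted p = 0.00324), BCS1 (1.93, edgeR adjusted p = 0.00688) and TIM17-1 (AT1G20350), an inner membrane import subunit (1.67, edgeR adjusted p = 0.0341). By the same test, 5.84% of all genes were called positive. Leaving out any 1 library left 7 to 9 of the list called higher in fas2-4; NDA1 lost its call there whenever 1 of the 3 Col-0 libraries was left out.

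**Figure D5:**
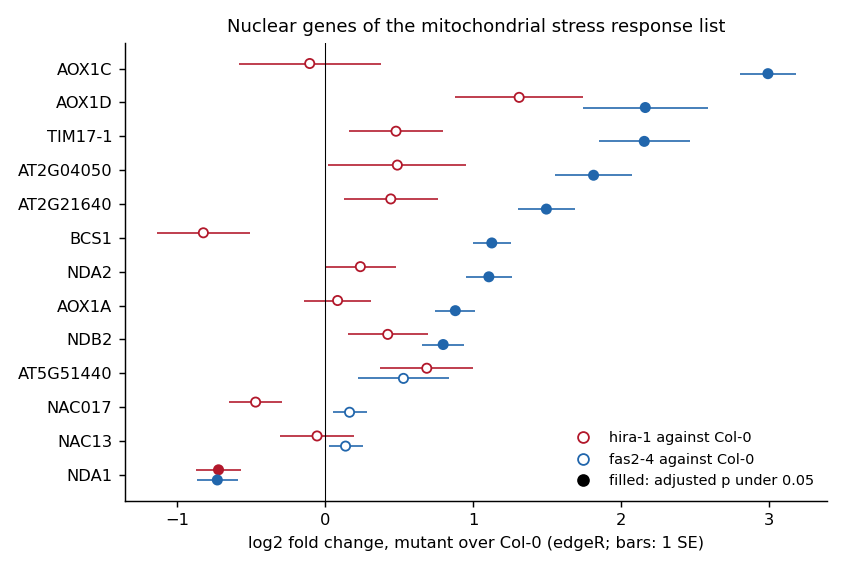
Log2 fold changes (horizontal axis, mutant over Col-0, bars of 1 SE) of the 13 tested nuclear genes of the mitochondrial stress response list, sorted by the change in fas2-4; filled points passed an edgeR adjusted p of 0.05. In fas2-4, 9 filled points lie above 0, up to AOX1C at 2.99, and NDA1 lies below at -0.73; in hira-1 the filled point is NDA1 at -0.72.

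Tissue markers were summed beside these results. The 6 green tissue markers, with 1 of 6 at 0 in each library, summed to 42785 to 45579 CPM in fas2-4 and to 56318 to 69934 in Col-0, without overlap. Of the 5 tested, 5 had an unadjusted p under 0.05 and 1 was called lower in fas2-4. Over all genes tested there, 25.4% had such a p and 2.96% were called lower. In experiment 1 the sums were 53366 to 67518 in hira-1 and 60472 to 71460 in Col-0. The 8 root markers, 2 or 3 of them at 0 in each library, summed to 45.8 to 55.7 CPM in fas2-4 and 61.5 to 66.0 in Col-0, and to 27.2 to 36.1 in hira-1 and 27.9 to 33.9 in Col-0. Nearly all of that sum was SCR (means 38.8 in fas2-4 and 51.4 in its Col-0) and SHR (12.7 and 11.8), which went opposite ways. EXPA7 and LRX1 were at 0 in every library. WER, MYB36, CASP1 and CASP2 averaged at most 0.455 CPM in any group, so the sum says little about root content. The part of tissue make-up in the results was not tested.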

How the data were processed

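Whole-seedling RNA was sequenced in 12 libraries, 3 per group. Per the submitters' processing notes, fastp 0.23.4, HISAT2 2.2.1 and the TAIR10 build were used. How genes were counted (program, annotation version, strand, reads with several matches) is not given in the sources used here. Raw read counts per gene were deposited by the authors, as was a score per gene, the TMM-scaled TPM, in 1 table of each per experiment. Nothing in the labels says that replicates came from separate plantings, so p-values measure the spread between these libraries.

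The mitochondria-encoded rows and all gene lists were chosen with earlier results of these data known. Counts were filtered (filterByExpr), TMM-scaled and tested 2-sided by the robust quasi-likelihood F-test of edgeR 4.0.16 (R 4.3.3) within each experiment, with Benjamini-Hochberg adjustment over all genes tested and a threshold of 0.05. All adjusted p-values are of this kind unless DESeq2 1.42.0 or limma 3.58.1 is named. The difference between mutants used all 12 libraries. Named rows are the called ones, the 2 highest per length in each class and the 5 highest other rows; from nuclear lists, up to 4 called genes with the smallest adjusted p. ATMG01280, ATMG00590 and the rows set beside chromosome 2 genes were added after their values were seen. Same-numbered libraries of experiment 1 deviated together across genes (correlations 0.319, 0.593 and 0.682), which is the only sign that they are pairs; blocked values stand beside results they change. For 111 of the 152 rows exactly 1 whole length was compatible with every library, taking each deposited TPM value as ± 0.0006; over all genes, 99.4% of such lengths found in the reference equal its exon length exactly. Nuclear matches were found with blastn (megablast, E-value limit 1e-10) in TAIR10.1.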

Additional observations from a re-analysis of the deposited data

Results flagged for a closer look

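The test of the difference between the effects of the mutants called 4 mitochondria-encoded rows. For rrn18 and ATMG00020 that test also carries the gap between the Col-0 sets of the experiments. That gap cannot be told apart from a difference between mutants. The difference, fas2-4 effect minus hira-1 effect on the log2 scale, was 1.92 for rrn18 (ATMG01390) and 2.13 for ATMG00020, whose counts are given above. It was 2.89 for ATMG00660 (SE 0.722, edgeR adjusted p = 0.0263) and 4.78 for ATMG00330 (SE 1.43, edgeR adjusted p = 0.0478).

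ATMG00660, a row of 450 bases, had 3, 2 and 1 counts in libraries labelled hira-1 and 16, 7 and 14 in Col-0. It had 41, 20 and 25 counts in fas2-4 and 20, 18 and 20 in Col-0. Its summed CPM was 0.168 times that of Col-0 in hira-1 (95% exact counting interval 0.0580 to 0.402) and 1.49 times that of Col-0 in fas2-4 (1.05 to 2.11). The test within experiment 2, which takes in the spread between libraries, did not call it in fas2-4 (log2 fold change 0.43, SE 0.346, edgeR adjusted p = 0.507). ATMG00330, a row of 88 bases, had 1, 0 and 0 counts in hira-1 and 4, 15 and 12 in Col-0, and 32, 12 and 5 in fas2-4 against 14, 9 and 15 in Col-0. Its summed ratio was 0.0335 in hira-1 (0.000821 to 0.201) and 1.29 in fas2-4 (0.829 to 2.03). Within experiment 2 it stood at 0.24 on the log2 scale (SE 0.615, edgeR adjusted p = 0.867). The intervals of both rows pool the libraries of a group and cover counting error only. In both rows the hira-1 and Col-0 libraries of experiment 1 did not overlap, while the fas2-4 and Col-0 libraries did. Both were too low to be tested in experiment 1 alone and entered the test of the difference only through the groups with higher counts. Neither has a chromosome 2 counterpart in the reference's notes. The part of the plastid share, which was also lower in libraries labelled hira-1, was not tested.

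Over 21 alternatives, the difference for rrn18 passed in all (edgeR or DESeq2 adjusted p 0.000253 to 0.0428). For ATMG00020 it was lost in 10 of 21 (0.00542 to 0.164): with length offsets, with the block and offsets, and without hira-1 replicate 1, replicate 1 or 2 of its Col-0, fas2-4 replicate 2 or 3, or any 1 Col-0 library of experiment 2. For ATMG00660 it was lost in 6 of 20 (0.0043 to 0.0741), each a fit without 1 library: hira-1 replicate 3, replicate 1 of its Col-0, fas2-4 replicate 3, or any 1 Col-0 library of experiment 2. For ATMG00330 it was lost in 11 of 20 (0.0111 to 0.105), each a fit without 1 library.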

How the results depend on the processing

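Over all genes, DESeq2 called 4502 in hira-1, 2980 in fas2-4 and 4181 for the difference, against 2575, 1948 and 2331 by edgeR; with the replicate block edgeR called 9593, 1465 and 6461. In experiment 1, DESeq2 and limma on log2(TMM-scaled TPM + 1) and + 0.1 each called 1 row, ATMG09730, higher; the replicate block called 3 higher and 1 lower, and gene length offsets 1 lower. Leaving out 1 library gave 0 to 3 rows lower. The call of rrn18 held under all 11 alternatives that kept every library. ATMG09450 turned to -0.12 with length offsets and -0.085 with the block and the offsets. The share ratio was 1.13 without ATMG00020, rrn18 and rrn5, 0.782 without rrn18 and rrn5 alone (chosen after seeing the data) and 0.614 to 0.783 without 1 library. Respiratory subunits higher numbered 9 by DESeq2, 14 with the block and 11 with block and offsets (lower 5 and 7), and 0 to 8 higher and 0 to 3 lower without 1 library.

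In fas2-4, same-numbered libraries gave no clear sign of being pairs (correlations -0.0719, 0.251 and -0.0267). Only 1 of 3 fas2-4 libraries correlated best with its own number. Without 1 library, ATMG00020 ranged from -0.10 to 0.20, rrn18 from -0.16 to 0.27, ATMG09450 from -0.66 to 0.49 and ATMG09730 from -0.67 to 0.47, each lowest without replicate 1 of fas2-4. The last 2 were at -0.015 and -0.014 without replicate 3 of Col-0, at -0.017 and -0.019 by limma with 1 added, at -0.018 and -0.020 with 0.1 added, and at -0.0089 and -0.0066 with the replicate block. Without 1 library, 0 to 1 rows were lower, the share ratio was 0.896 to 1.36 and 0 to 1 stress genes were lower. For the difference, a minimum of 1 CPM left 2 rows positive (fewer rows tested), the replicate block called 1 negative, and without 1 library 1 to 4 were positive and 0 to 1 negative. The cause of these shifts was not tested. Fits of the nuclear lists were chosen after seeing the data. Depth limits many rows: 74 of 152 held 10 counts or fewer.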
